A study of Mus musculus with 9 samples.

Results

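The genes described here encode the major histocompatibility complex (MHC, named H2 in the mouse) and the machinery that loads and regulates it. They were taken as every gene of the deposited table whose symbol begins with H2-, together with B2m, Tap1, Tap2, Tapbp, Tapbpl, Cd74, Ciita, Nlrc5, Erap1, Cd86, Cd80 and Cd40, which gave 42 of 18474 genes. By role, 19 were class I heavy chains, 6 served class I peptide loading, 10 were class II chains or class II chaperones, 2 were transactivators and 3 were costimulators. The last 2, H2-Ke6 and H2-T-ps, carry an H2 name only: H2-Ke6 (Hsd17b8) encodes a steroid and fatty acid metabolism enzyme, and H2-T-ps is named as a pseudogene.

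Hippocampal RNA came from wild-type mice in 3 groups of 3 mice, 1 library per mouse, sampled at 30 days. The sham group had sham surgery and was labelled as control treatment. The KA group had an injection of KA, taken to be kainic acid, an agonist of kainate-type glutamate receptors that provokes seizures. The KA+NBP group had KA and NBP, taken to be the butylphthalide of the series title. Strain, sex, age and doses are not given in the sources used here, and no group had NBP without KA.

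MHC class I molecules, made of a heavy chain and B2m, display peptides cut in the cytosol to CD8 T cells and natural killer cells. The peptides are pumped into the endoplasmic reticulum by Tap1 and Tap2, and class I transcription is driven by Nlrc5. MHC class II molecules display peptides from endosomes to CD4 T cells, need Cd74 and H2-DM for loading, and depend on Ciita. In the healthy brain both classes are low, class II is found mainly in macrophages at the borders and rarely in microglia, and glial cells can raise both after injury or interferon.

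Each library held between 15699251 and 16374637 estimated counts, and levels are CPM, which divides each gene's count by the size of its library, after scaling by TMM factors of 0.975 to 1.04. Tests were edgeR quasi-likelihood tests over 14752 genes, and a gene is said to rise or fall when its Benjamini-Hochberg adjusted p was below 0.05. Of the 42 genes, 30 had enough counts to be tested. As a check that the tissue held neurons, 8 neuron markers summed to 6148 to 6540 CPM in sham, 4474 to 5123 in KA and 6505, 5220 and 6489 in KA+NBP replicates 1 to 3. In KA, 5 of the 8 fell and 1 rose, where 14.6% of all tested genes fell and 19.0% rose. These markers do not tell the hippocampus from other brain regions. KA+NBP replicate 2 stood apart: 7 choroid plexus markers summed to 637 CPM there, of which Ttr was 553, against 24.0 to 51.8 in the other 8 libraries, and 10 T cell markers summed to 17.9 CPM against 1.25 to 11.2. Results that rest on this library are given with and without it.

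After KA, antigen presentation genes were higher than in sham across roles, and none of those tested was called lower. Of the 30 tested genes, 19 rose and 0 fell, where 19.0% of all tested genes rose and 14.6% fell. The 30 log2 fold changes were all above 0, with a median of 2.07 against 0.01 over all genes. In 26 of the 30 every KA library lay above every sham library, which held for 29.3% of all genes. The 19 were 8 of 11 class I heavy chains, 6 of 6 loading genes, 3 of 8 class II genes, Nlrc5 and Cd86. Without KA+NBP replicate 2, whose spread enters the shared error of the fit, 26 of 30 rose, 11 of them class I heavy chains and 7 class II genes, against 24.8% of all genes. A fit of the sham and KA libraries alone called 26 of the 29 genes it tested, against 24.3% of all genes. With 32 genes tested in each, the count was 4 without sham replicate 1, 9 without sham replicate 2, 8 without sham replicate 3 and 12 without KA replicate 2. Calls over all genes, in either direction, were fewer there too, at 2721, 3401, 2762 and 3678 against 4961 with all libraries.

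**Figure D1:**
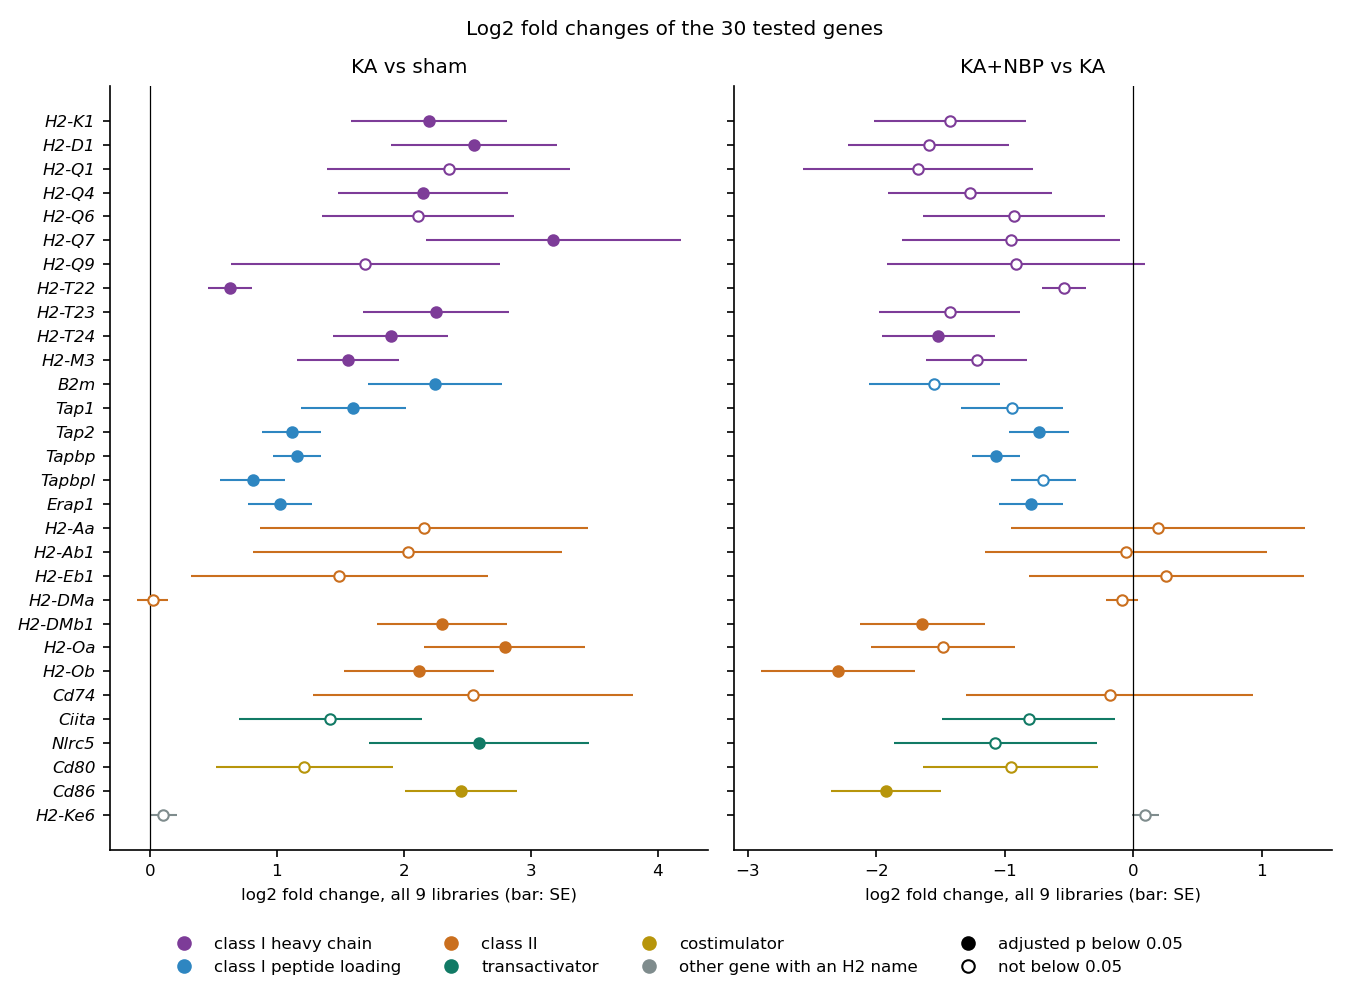
Log2 fold changes (horizontal axes, bars give the SE) of the 30 tested genes in KA against sham and in KA+NBP against KA, from the fit of all 9 libraries, coloured by role and filled where the adjusted p was below 0.05. All 30 points of KA against sham lie above 0, and the class II surface chains and Cd74 carry the widest bars.

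The classical class I heavy chains H2-K1 and H2-D1 present peptides to CD8 T cells and were the most abundant heavy chains. H2-K1 (gene ID 14972, GRCm39 chr17:34214986-34219321, minus strand) had 28.4, 33.9 and 48.0 CPM in sham replicates 1 to 3, 154, 184 and 168 with KA and 27.6, 139 and 21.6 with KA+NBP. All KA libraries lay above all sham libraries, and of the KA+NBP libraries only replicate 2 lay above the sham range. The rise from sham to KA was 2.20 on the log2 scale (SE 0.61, adjusted p = 0.0236). H2-D1 (gene ID 14964, GRCm39 chr17:35481245-35486473, plus strand) had 32.9, 47.1 and 53.2 CPM in sham, 239, 288 and 255 with KA and 33.9, 197 and 28.1 with KA+NBP. KA again stood clear of sham, and KA+NBP replicate 2 lay between both groups while its companions were at or below sham. H2-D1 rose by 2.55 (log2, SE 0.66, adjusted p = 0.0175).

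The promoters of both chains and of their partner B2m are shown because these 3 genes were the most abundant of the class I pathway and all 3 rose. They are RefSeq sequences of GRCm38.p6, each 300 bases from 250 before the annotated start, written 5′ to 3′ on the gene's strand. Capitals mark any of 6 motifs searched on both strands: CCAAT, bound by NF-Y; TGACG, the core of the X2 box; GCAAC, a part of the X1 box bound by RFX; GAAA and GAAA with 2 bases between, an interferon regulatory factor element (the IRF motif); GGG and TTCCC with 2 bases between, the NF-kappaB element of class I enhancer A (the enhancer A motif); and TTC and GAA with 3 bases between, a STAT element (the STAT motif). Motifs may overlap, and a match is a match of letters only.
H2-K1, chr17:34000298-34000597, minus strand: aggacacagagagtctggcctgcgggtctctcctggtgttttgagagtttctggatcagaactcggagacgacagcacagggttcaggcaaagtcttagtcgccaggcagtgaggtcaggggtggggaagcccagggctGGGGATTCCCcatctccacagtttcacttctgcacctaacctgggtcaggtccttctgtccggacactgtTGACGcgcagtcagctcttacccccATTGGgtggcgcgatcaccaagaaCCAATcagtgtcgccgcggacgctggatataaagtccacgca
H2-D1, chr17:35262844-35263143, plus strand: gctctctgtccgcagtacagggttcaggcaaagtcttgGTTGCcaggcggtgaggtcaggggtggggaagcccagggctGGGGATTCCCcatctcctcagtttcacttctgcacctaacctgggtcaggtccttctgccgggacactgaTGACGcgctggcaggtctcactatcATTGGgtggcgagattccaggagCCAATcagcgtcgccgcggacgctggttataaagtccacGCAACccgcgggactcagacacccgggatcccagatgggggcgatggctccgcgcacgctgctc
B2m, chr2:122147437-122147736, plus strand: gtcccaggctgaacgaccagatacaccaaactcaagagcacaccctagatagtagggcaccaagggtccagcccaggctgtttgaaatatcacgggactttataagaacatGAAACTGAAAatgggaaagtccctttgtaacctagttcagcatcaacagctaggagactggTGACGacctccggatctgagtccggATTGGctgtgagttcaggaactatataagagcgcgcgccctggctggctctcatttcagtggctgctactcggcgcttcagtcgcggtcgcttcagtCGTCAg

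The H2-K1 and H2-D1 promoters shared a run of 47 identical bases that held the enhancer A match, and both also held TGACG, and CCAAT once on each strand. B2m had an IRF match where H2-K1 and H2-D1 had none. A promoter was matched for 31 of the 42 genes, using the first entry of each gene. The enhancer A motif was in 5 of 16 matched class I heavy chain promoters (31.2%), against 1.75% of all 32851 promoter entries, and CCAAT in 13 of 16 (81.2%) against 37.4%. TGACG was in 43.8% of the 16 and 20.8% of all, and GCAAC in 25% and 35.2%. In its exact form, the IRF motif was in 2 of the 16 class I heavy chain promoters (12.5%), those of H2-T22 and H2-T23. It was in 12.9% of the 31 and 3.44% of all, and the STAT motif in 6.45% and 8.30%.

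The nonclassical heavy chains present restricted ligands to fewer kinds of receptor, and those called moved by unequal amounts. H2-T23 encodes Qa-1, a ligand of inhibitory natural killer receptors; it had 6.99, 6.96 and 8.54 CPM in sham, 34.2, 42.9 and 30.0 with KA and 6.61, 28.6 and 4.46 with KA+NBP. KA lay well above sham, and H2-T23 rose by 2.25 (log2, SE 0.58, adjusted p = 0.0172). H2-M3, which presents formylated peptides, had 1.75, 1.93 and 1.76 CPM in sham, 5.61, 5.64 and 4.81 with KA and 1.46, 4.16 and 1.26 with KA+NBP. Its rise was 1.56 (log2, SE 0.40, adjusted p = 0.0174), with no overlap of KA and sham. H2-T22, a ligand of some gamma delta T cells, moved least of the called heavy chains: 14.8, 17.9 and 16.2 CPM in sham, 24.0, 29.3 and 22.5 with KA and 15.5, 22.3 and 14.4 with KA+NBP, and a rise of 0.63 (log2, SE 0.17, adjusted p = 0.0219). The KA and sham libraries of H2-T22 did not overlap, and KA+NBP replicate 2 fell just short of the KA range. H2-T24, a further T-region chain, had 1.18, 1.24 and 1.63 CPM in sham, 4.49, 7.30 and 3.39 with KA and 1.65, 2.87 and 0.753 with KA+NBP, and rose by 1.90 (log2, SE 0.45, adjusted p = 0.0132). KA was higher than sham in every library and KA replicate 2 was the highest.

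The Q-region chains share sequence to unequal degrees. H2-Q4 had 4.30, 5.65 and 7.78 CPM in sham, 24.4, 28.5 and 26.0 with KA and 4.47, 25.2 and 2.89 with KA+NBP, a rise of 2.15 (log2, SE 0.67, adjusted p = 0.0357). Here KA+NBP replicate 2 lay within the KA range. H2-Q7, a Qa-2 gene, had 0.0730, 0.254 and 1.02 CPM in sham, 3.94, 4.15 and 3.95 with KA and 0.654, 5.17 and 0.377 with KA+NBP, a rise of 3.18 (log2, SE 1.01, adjusted p = 0.0378). Sham replicates differed widely in H2-Q7 while the KA replicates were nearly equal. H2-Q6 (log2 fold change 2.11, adjusted p = 0.0578), H2-Q1 (2.35, adjusted p = 0.0861) and H2-Q9 (1.70, adjusted p = 0.243) did not pass the test, although KA and sham did not overlap in any of them. Divided reads limit these values. The deposited counts of H2-Q4, H2-Q6, H2-Q7 and H2-Q9 were fractional in 8 or 9 of the 9 libraries. Of the 100-base windows of the longest H2-Q7 coding transcript (GENCODE M21), 16.4% recurred in transcripts of other genes. The share was 10.8% for H2-Q6, 13.1% for H2-Q1, 14.2% for H2-T22, 2.66% for H2-Q4 and 0 for H2-Q2 and H2-K1. With H2-Q6, H2-Q7 and H2-Q9 added to 1 row, a step chosen after seeing the data, the sum had 1.78, 3.78 and 6.45 CPM in sham, 17.8, 20.4 and 16.5 with KA and 3.43, 23.6 and 1.63 with KA+NBP. That sum gave a log2 fold change of 2.18 (SE 0.83) and an adjusted p of 0.0714, so the H2-Q7 call did not hold for the sum.

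All 8 class I heavy chain calls ended without sham replicate 1. Without sham replicate 2 only H2-T22 and H2-T24 remained of them, and without sham replicate 3 only H2-Q7 and H2-T24. H2-Q4 and H2-Q7 were also lost without any 1 of the KA replicates, H2-K1 without KA replicate 2 or 3, and H2-T22 without KA replicate 2. The log2 fold change of H2-K1 ran from 2.04 to 2.44 and that of H2-D1 from 2.37 to 2.70 over all settings tried.

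Read per length, as the TPM of the deposited table, which also divides by transcript length, H2-D1 was above H2-K1 in all 9 libraries. The ratio of H2-D1 to H2-K1 TPM was 1.10, 1.302 and 1.04 in sham replicates 1 to 3, 1.45, 1.46 and 1.42 with KA and 1.14, 1.34 and 1.23 with KA+NBP. This ratio was not tested. The order of another pair differed between sham and KA. H2-T22 was above H2-T23 in sham, at 21.7 to 26.7 TPM against 16.5 to 20.3, and below it in KA, at 34.0 to 44.0 against 66.6 to 96.9. In KA+NBP replicates 1 and 3 the order of H2-T22 and H2-T23 was that of sham, and in replicate 2 that of KA. H2-K1 and H2-D1 together made 65.8 to 69.8% of summed class I heavy chain TPM in sham, 76.1 to 79.0% in KA, and 65.3, 74.1 and 67.0% in KA+NBP replicates 1, 2 and 3.

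**Figure D2:**
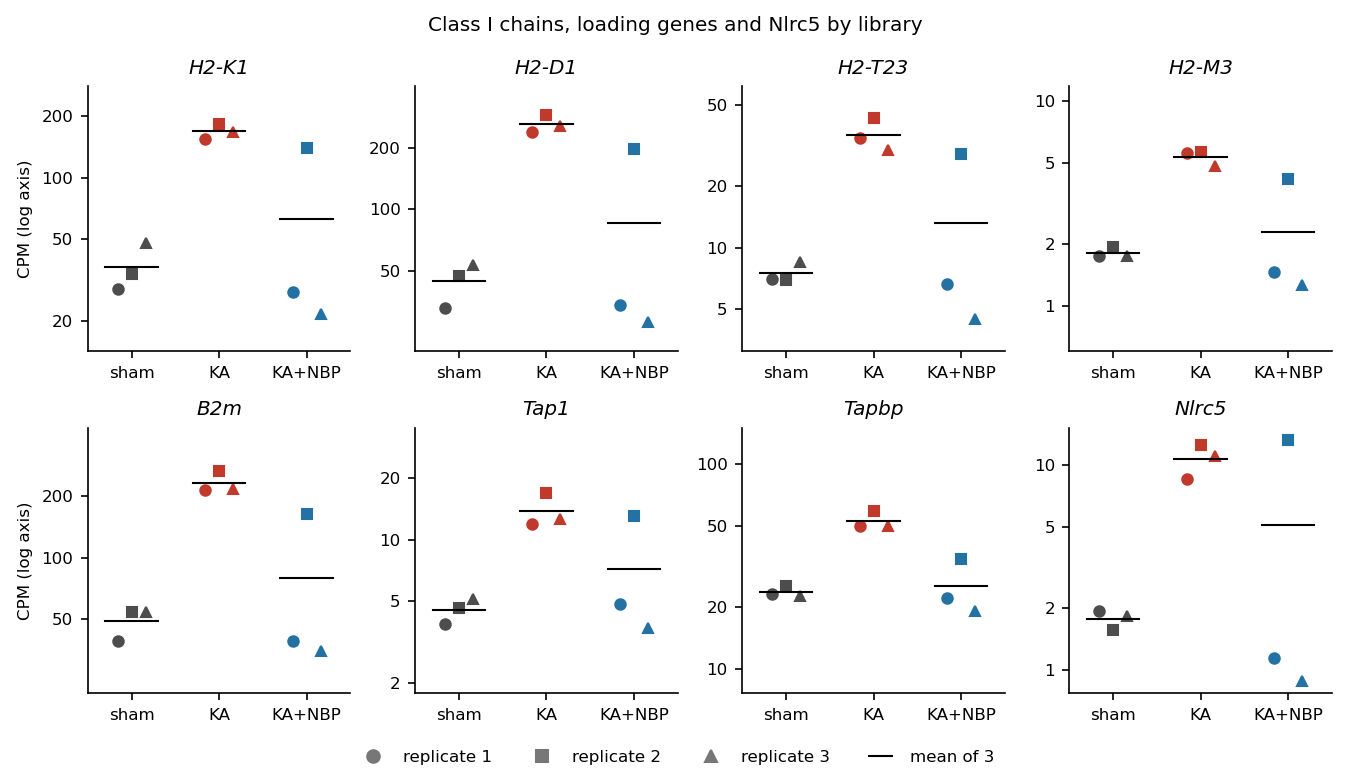
CPM by library (log axis of equal span in each panel) for H2-K1, H2-D1, H2-T23, H2-M3, B2m, Tap1, Tapbp and Nlrc5, with symbols for the replicate number and a bar at the mean of 3. The 3 KA libraries lie above the 3 sham libraries in every panel, and KA+NBP replicate 2 lies above its 2 companions, for H2-K1 at 139 CPM against 27.6 and 21.6.

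The genes that supply and load class I rose as a group, 6 of 6. B2m, the light chain of every class I molecule, had 39.0, 54.2 and 54.1 CPM in sham, 214, 267 and 218 with KA and 39.1, 165 and 35.2 with KA+NBP. KA lay about as far above sham as for H2-K1, at 2.24 (log2, SE 0.53, adjusted p = 0.0121). Tap1, a subunit of the peptide transporter, had 3.87, 4.66 and 5.15 CPM in sham, 11.98, 16.9 and 12.7 with KA and 4.83, 13.02 and 3.70 with KA+NBP, and rose by 1.60 (SE 0.41, adjusted p = 0.0178). Tap2, the second subunit, had 9.85, 11.7 and 12.99 CPM in sham, 23.8, 26.0 and 25.0 with KA and 11.8, 21.9 and 11.2 with KA+NBP, and rose by 1.12 (SE 0.24, adjusted p = 0.00797). For both subunits KA cleared sham, and for Tap1 KA+NBP replicate 2 reached the KA range.

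Tapbp encodes tapasin, which bridges the transporter and empty class I. It had 23.3, 25.3 and 22.8 CPM in sham, 50.2, 59.5 and 49.8 with KA and 22.3, 34.5 and 19.2 with KA+NBP. The 3 groups were tight apart from KA+NBP replicate 2, and the rise of 1.16 (log2, SE 0.19) had the smallest adjusted p of the 30 genes, 0.00322. Its homologue Tapbpl, a peptide editor, had 6.92, 4.91 and 5.40 CPM in sham, 10.7, 11.2 and 8.37 with KA and 5.02, 8.85 and 4.71 with KA+NBP, and rose by 0.81 (SE 0.26, adjusted p = 0.0376). Erap1, the aminopeptidase that trims peptides in the endoplasmic reticulum, had 9.98, 12 and 9.92 CPM in sham, 21.2, 22.5 and 21.3 with KA and 10.3, 18.7 and 8.41 with KA+NBP, and rose by 1.03 (SE 0.25, adjusted p = 0.0144). KA was above sham in every library of all 6 genes. The Tap2 and Tapbp calls held in every setting tried; B2m was lost without sham replicate 1 (highest adjusted p = 0.0550), Erap1 without sham replicate 1 or 3, Tap1 without any 1 of the sham replicates or KA replicate 2, and Tapbpl without any 1 of the sham replicates or KA replicate 1 or 2.

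The proteasome showed which subunits went with these genes. All 5 genes of the immunoproteasome and its activator rose, led by Psmb8 (log2 fold change 2.14, adjusted p = 0.0105) and Psmb9 (2.10, adjusted p = 0.0179), which replace constitutive subunits when peptides are cut for class I, and with smaller rises of Psme1 (0.56, adjusted p = 0.00488) and Psme2 (0.50, adjusted p = 0.0178). The list's median was 0.56, and 19.0% of all tested genes rose. Of the 3 constitutive subunits they displace, 0 rose and Psmb5 fell by 0.28 on the log2 scale (adjusted p = 0.0455), while Psmb6 and Psmb7 were at 0.09 and 0.12 and not called. Tap1 and Psmb9 lie head to head on chromosome 17, 225 bases apart on opposite strands in the deposited GRCm39 coordinates. Of 7 folding and loading helpers outside the 42, 6 rose, among them Sec61b by 0.61, Pdia3 by 0.50 and Uggt1 by 0.24 (log2), and Lnpep, an endosomal peptide-trimming enzyme, fell by 1.08 on the log2 scale (adjusted p = 0.00306).

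Of the class II genes, the surface chains and Cd74 were not called, and 3 of 4 chains of the peptide editors were. H2-Aa, the alpha chain of I-A, had 0.686, 1.24 and 2.32 CPM in sham, 8.97, 6.26 and 3.82 with KA and 0.636, 20.9 and 0.188 with KA+NBP. KA did not overlap sham, but KA+NBP replicate 2 was higher than every KA library and replicate 3 lower than every sham library. The log2 fold change of H2-Aa from sham to KA, 2.16 with an SE of 1.29, was not called (adjusted p = 0.223). H2-Ab1, the beta chain of I-A, had 0.624, 1.37 and 2.26 CPM in sham, 7.08, 5.64 and 4.69 with KA and 0.636, 15.96 and 0.126 with KA+NBP (2.03, SE 1.22, adjusted p = 0.224). H2-Eb1, the beta chain of I-E, had 0.624, 1.37 and 2.01 CPM in sham, 4.96, 4.48 and 1.85 with KA and 0.445, 12.7 and 0.314 with KA+NBP (1.49, SE 1.17, adjusted p = 0.351). The H2-Ab1 groups did not overlap, while KA replicate 3 of H2-Eb1 lay inside the sham range. Cd74, the invariant chain that guides class II to endosomes, had 1.37, 2.55 and 5.02 CPM in sham, 22.02, 16.3 and 14.1 with KA and 1.65, 44.0 and 0.377 with KA+NBP (2.55, SE 1.26, adjusted p = 0.147). Cd74 showed the same order of libraries as H2-Aa within each group.

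These 4 genes passed the test once KA+NBP replicate 2 was left out, with nearly the same fold changes and smaller errors: H2-Aa 2.16 (SE 0.44, adjusted p = 0.00295), H2-Ab1 2.03 (SE 0.40, adjusted p = 0.00248), H2-Eb1 1.49 (SE 0.44, adjusted p = 0.0192) and Cd74 2.55 (SE 0.40, adjusted p = 0.000701). They also passed in the fit of sham and KA alone, and were not called in any other setting. In the fit of all libraries, 3 of the 8 tested class II genes rose.

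Those 3 were H2-DM and H2-DO chains. H2-DMb1 encodes the beta chain of H2-DM, which releases the Cd74 fragment from class II; it had 0.686, 1.06 and 1.51 CPM in sham, 6.02, 5.46 and 4.62 with KA and 0.826, 3.36 and 0.942 with KA+NBP, and rose by 2.30 (SE 0.51, adjusted p = 0.00994). H2-Oa and H2-Ob encode H2-DO, an inhibitor of H2-DM. H2-Oa had 0.125, 0.373 and 0.188 CPM in sham, 2.07, 1.41 and 1.42 with KA and 0.381, 1.16 and 0.188 with KA+NBP, and rose by 2.79 (SE 0.64, adjusted p = 0.0108). H2-Ob had 0.998, 0.684 and 0.565 CPM in sham, 4.01, 2.82 and 3.02 with KA and 0.381, 1.47 and 0.126 with KA+NBP, and rose by 2.12 (SE 0.59, adjusted p = 0.0236). In all 3 genes KA cleared sham and KA+NBP replicate 2 stayed below the KA range, unlike the surface chains. The H2-DMb1 call held in every setting, H2-Oa was lost without sham replicate 1 (adjusted p = 0.0515), and H2-Ob without any 1 of the sham replicates or KA replicate 1 or 3.

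H2-DMa, the alpha chain that pairs with H2-DMb1, was the exception, with 16.96, 16.6 and 15.4 CPM in sham, 19.7, 14.7 and 15.2 with KA and 16.4, 15.4 and 14.9 with KA+NBP. All 3 groups overlapped, and its log2 fold change was 0.02 (SE 0.12, adjusted p = 0.908). Per length it was the most abundant class II gene in sham, at 21.4 to 24.8 TPM against 1.68 to 3.69 for H2-DMb1. Its deposited span (GRCm39 chr17:34338667-34358075, plus strand) overlaps that of Brd2, a chromatin reader, by 2915 bases on the same strand, and Brd2 had a log2 fold change of 0.10 (adjusted p = 0.317); how reads of the overlap were assigned is not given in the sources used here. Spans of Ddx39b over H2-D1, H2-Q1, H2-Q2, H2-Q4 and H2-Q6, of Psmb8 over Tap2, of Patl2 over B2m, of Cast over Erap1 and of Dexi over Ciita overlap as well, the last 3 on the opposite strand, and Ddx39b was at 0.07 (log2, adjusted p = 0.482).

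**Figure D3:**
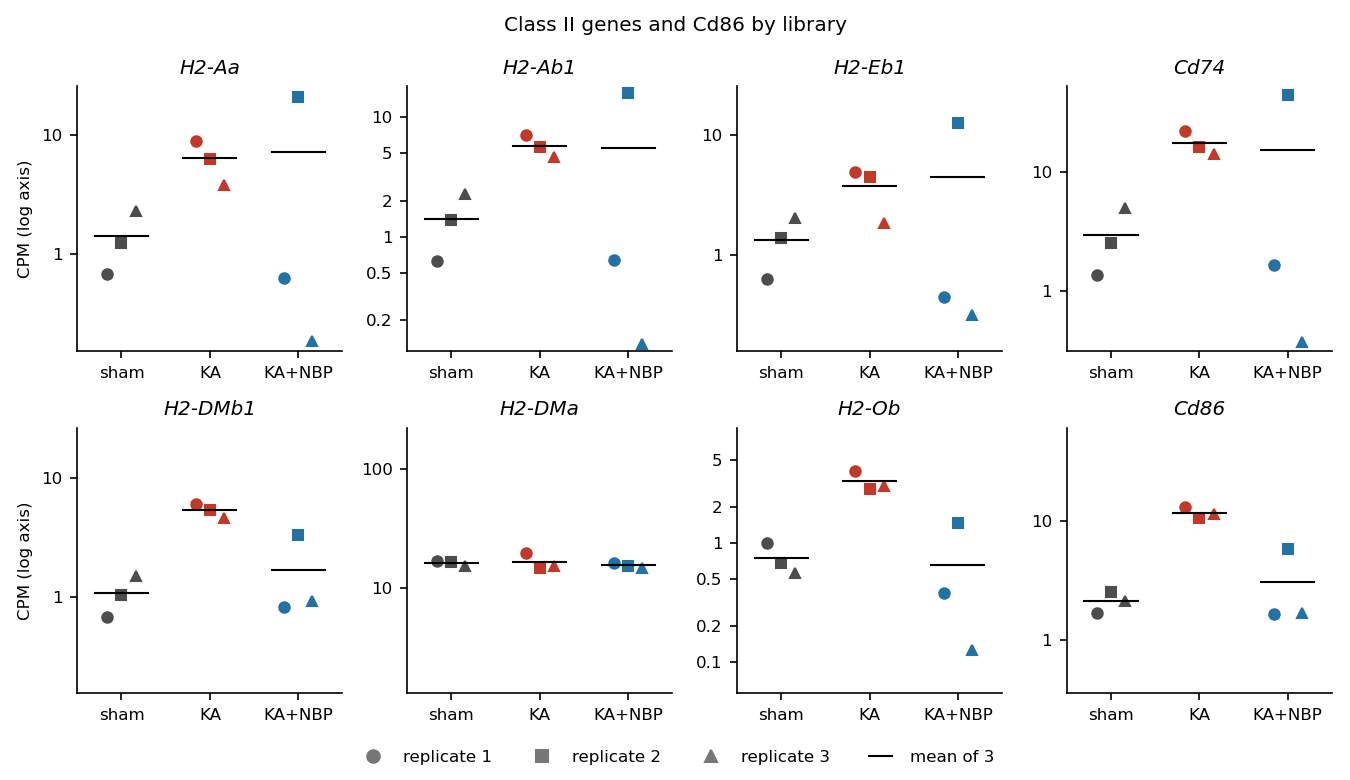
CPM by library (log axis of equal span in each panel) for H2-Aa, H2-Ab1, H2-Eb1, Cd74, H2-DMb1, H2-DMa, H2-Ob and Cd86, with symbols for the replicate number and a bar at the mean of 3. KA+NBP replicate 2 is the highest of 9 libraries for H2-Aa, H2-Ab1, H2-Eb1 and Cd74 and lies between sham and KA for H2-DMb1, H2-Ob and Cd86, and H2-DMa is level near 16 CPM.

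Promoters of 2 surface chains and of both H2-DM chains are shown to set the flat gene beside the others, with the same source, length and capitals as above.
H2-Aa, chr17:34287774-34288073, minus strand: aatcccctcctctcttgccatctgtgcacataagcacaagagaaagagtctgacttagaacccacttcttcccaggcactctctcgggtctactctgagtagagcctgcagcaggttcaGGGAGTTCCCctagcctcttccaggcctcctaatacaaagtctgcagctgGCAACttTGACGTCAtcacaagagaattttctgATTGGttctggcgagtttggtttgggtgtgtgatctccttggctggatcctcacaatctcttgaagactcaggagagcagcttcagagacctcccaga
H2-Eb1, chr17:34305617-34305916, plus strand: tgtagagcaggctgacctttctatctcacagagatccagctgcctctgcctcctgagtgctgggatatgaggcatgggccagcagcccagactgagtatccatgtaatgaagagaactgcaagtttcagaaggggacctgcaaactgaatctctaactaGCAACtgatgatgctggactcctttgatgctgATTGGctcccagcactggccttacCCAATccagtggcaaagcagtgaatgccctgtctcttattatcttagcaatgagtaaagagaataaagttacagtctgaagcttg
H2-DMb1, chr17:34152941-34153240, plus strand: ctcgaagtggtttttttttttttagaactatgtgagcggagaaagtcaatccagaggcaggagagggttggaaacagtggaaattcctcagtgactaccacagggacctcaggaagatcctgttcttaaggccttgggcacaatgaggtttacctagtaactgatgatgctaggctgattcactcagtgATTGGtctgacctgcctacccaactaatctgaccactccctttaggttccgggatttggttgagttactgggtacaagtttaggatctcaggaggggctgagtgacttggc
H2-DMa, chr17:34122582-34122881, plus strand: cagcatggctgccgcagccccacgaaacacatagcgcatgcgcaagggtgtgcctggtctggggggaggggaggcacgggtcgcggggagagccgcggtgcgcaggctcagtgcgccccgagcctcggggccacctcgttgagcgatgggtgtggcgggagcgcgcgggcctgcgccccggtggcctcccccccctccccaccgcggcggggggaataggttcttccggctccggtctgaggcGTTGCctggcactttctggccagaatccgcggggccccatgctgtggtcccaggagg

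H2-Aa and H2-Eb1 held GCAAC followed by CCAAT on the opposite strand, written ATTGG above, in the order of the X and Y boxes, at -81 and -48 from the start in H2-Aa and at -91 and -59 in H2-Eb1. H2-DMb1 held CCAAT at -61, and H2-DMa held no CCAAT in this window and 1 GCAAC match, on the opposite strand at -7. Only the first promoter entry of H2-DMa was searched, so motifs at any other start of the gene would be missed. That entry's start was not matched to the deposited start of H2-DMa, so the window may lie elsewhere in the gene. Of 8 matched class II promoters, 7 held CCAAT (87.5%, against 37.4% of all promoters) and 6 held GCAAC (75%, against 35.2%). TGACG was in 1 of the 8 (12.5%), against 20.8% of all, and the enhancer A motif in 2.

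The transactivators differed in level and in call. Nlrc5, which drives class I transcription, had 1.93, 1.55 and 1.82 CPM in sham, 8.56, 12.6 and 11.0 with KA and 1.14, 13.2 and 0.879 with KA+NBP. KA cleared sham by several fold and KA+NBP replicate 2 exceeded all KA libraries; the rise was 2.59 (log2, SE 0.87, adjusted p = 0.0457), and it was lost on leaving out any 1 sham or KA library. Without KA+NBP replicate 2 it was 2.59 with an SE of 0.20 (adjusted p = 8.7e-06). Ciita, which drives class II, was rare, with 0.0624, 0.187 and 0.439 CPM in sham, 0.708, 0.368 and 0.802 with KA and 0.254, 0.673 and 0.126 with KA+NBP, from 59 counts in all. Its groups overlapped, and 1.42 (log2, SE 0.72, adjusted p = 0.155) was not called. Of 8 subunits of the RFX and NF-Y complexes and their CREB partners, which bind MHC promoters with them, 1 rose and 3 fell: Nfya by 0.54 (adjusted p = 0.00376), Nfyb fell by 0.46 on the log2 scale (adjusted p = 0.00419), Rfxap fell by 0.36 on the log2 scale (adjusted p = 0.0139) and Crebbp fell by 0.26 on the log2 scale (adjusted p = 0.0126). Rfx5 was at 0.06 and not called. For comparison, 19.0% of all tested genes rose and 14.6% fell.

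Costimulators on antigen-presenting cells were called for Cd86 alone. Cd86, a ligand of Cd28 and Ctla4, had 1.68, 2.55 and 2.13 CPM in sham, 12.99, 10.6 and 11.4 with KA and 1.65, 5.81 and 1.69 with KA+NBP. KA cleared sham, KA+NBP replicate 2 lay between, and the rise of 2.45 (log2, SE 0.44, adjusted p = 0.00459) held in every setting. Its relative Cd80 had 0.499, 0.560 and 0.126 CPM in sham, 1.06, 1.04 and 0.678 with KA and 0.254, 1.04 and 0.126 with KA+NBP (1.22, SE 0.70, adjusted p = 0.206), with no overlap of sham and KA. Cd40, the receptor of Cd40lg, was below the filter at 0.437, 0.187 and 0.188 CPM in sham, 0.236, 0.429 and 0.617 with KA and 0.636, 0.611 and 0.0628 with KA+NBP, 55 counts in all. H2-Ke6, the enzyme within the locus, had 11.7, 12.1 and 11.8 CPM in sham and 14.5, 11.5 and 12.3 in KA (0.10, SE 0.11, adjusted p = 0.480), so the 2 groups overlapped. The other genes below the filter had 54 counts over 9 libraries for H2-Q2, 49.2 for H2-T-ps, 47 for H2-M5, 45.1 for H2-DMb2, 11 for H2-Q10, 4 for H2-Eb2, 3 for H2-T3, 2 for H2-M2 and 1 each for H2-M1, H2-M9 and H2-M10.2. H2-Q10 had 0 counts in sham, where 0 allows up to 0.188 CPM in a library, and 0.123 to 0.184 CPM in KA.

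Genes that process antigen for class II, or were listed with receptors of MHC molecules, were called higher in part. Over all tested genes, 19.0% rose and 14.6% fell. Of 11 endosomal processing genes, 8 rose and 0 fell, with a median of 1.83 (log2); Ctsd rose by 2.87 (adjusted p = 0.00122), Ctsl by 1.92 (adjusted p = 0.000746), Ctsb by 1.27 (adjusted p = 0.000579) and Lgmn by 1.18 (adjusted p = 0.00187), all lysosomal proteases. Of genes of interferon signalling, the transcription factors Irf8 and Irf9 rose by 2.59 (log2, adjusted p = 0.00165) and 1.33 (adjusted p = 0.00395), and Ifngr1, a chain of the interferon gamma receptor, rose by 1.21 (adjusted p = 0.00502). Socs1 (0.75, adjusted p = 0.153), Jak2 (0.11), Ifngr2 (0.03), Irf2 (-0.01) and Jak1 (-0.02) of the same list did not pass the test. Ifng itself had 0 counts in sham and at most 0.184 CPM in KA and was not tested. Class I-related molecules outside the H2 names gave 3 of 5 higher, among them the IgG receptor Fcgrt (0.86) and the iron regulator Hfe (1.21). Of 5 tested genes on a list of MHC receptors and related immune receptors, 2 rose. These were Lag3, which binds class II, by 3.23 (adjusted p = 0.00234) and Lilrb4a by 5.11 (adjusted p = 0.00356). Lilrb4a had only 0.125 to 0.251 CPM in sham and 5.83 to 7.52 in KA, so its fold change is imprecise. Cd8a (3.87, adjusted p = 0.0997), Lilra5 (2.06, adjusted p = 0.139) and Pirb (1.49, adjusted p = 0.170) did not pass, and 4 more were too low to test. Being on this list does not establish that Lilrb4a or Lilra5 binds MHC molecules. The other lists gave 5 of 8 coinhibitors and costimulators, led by Vsir (1.82) and Lgals9 (2.09). They also gave Pdcd1 (4.88) and Cd28 (3.57), the 2 tested lymphocyte receptors, and 4 of 5 adhesion genes, led by Itgb2 (2.39). In each of these lists 0 were lower. Pdcd1 had 0 to 0.187 CPM in sham and 1.11 to 2.66 in KA, and Cd28 0.0624 to 0.124 and 0.920 to 1.23. Both fold changes thus rest on few sham reads.

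Cell markers moved with these groups, and their part in the results was not tested; in whole tissue, more cells of a type and more RNA per cell cannot be told apart. Microglia markers summed to 378 to 442 CPM in sham, 1337 to 1388 in KA and 377, 700 and 336 in KA+NBP replicates 1 to 3, with 9 of 10 called higher in KA. Border macrophage markers summed to 20.02 to 31.8, 58.8 to 67.2 and 19.96, 44.1 and 20.3 CPM. Of these markers, 2 of 8 tested were called higher in KA, where 19.0% of all tested genes rose. T cell markers summed to 1.25 to 2.67 CPM in sham, 6.54 to 11.2 in KA and 1.398, 17.9 and 2.01 in KA+NBP, with Cd5 at 0 in all sham libraries and at 0.590 to 0.736 CPM in KA. Dendritic cell markers summed to 40.5 to 43.3, 81.4 to 99.6 and 39.7, 49.8 and 36.8 CPM; in KA, Itgax was 32.2 to 42.2 CPM and Siglech 31.9 to 45.3 CPM, and Xcr1 and Clec9a were at most 0.124 CPM in any library. B cell markers summed to 0.312 to 1.62, 6.84 to 8.65 and 0.890, 5.93 and 0.439 CPM, of which Cd22 was 5.98 to 7.42 in KA. Astrocyte markers, 7 of 8 called higher in KA, summed to 4979 to 5460, 10881 to 13357 and 4917, 8943 and 5317 CPM. Endothelial markers summed to 210 to 243, 298 to 317 and 217, 288 and 197 CPM, monocyte and neutrophil markers to 1.93 to 4.02, 3.95 to 7.26 and 0.572, 11.0 and 0.816, and natural killer markers to 0.187 to 5.04, 0.413 to 1.29 and 0.508, 8.80 and 0.691. No marker of these lists was at 0 in all 9 libraries.

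Within KA, class I and class II were not highest in the same animal. KA replicate 2 was the highest KA library for 10 of 11 class I heavy chains and 6 of 6 loading genes, and KA replicate 1 for 8 of 8 class II genes. The T cell marker sum and the monocyte and neutrophil marker sum were also highest in KA replicate 1. Sums of microglia, border macrophage, dendritic, B and natural killer cell markers were highest in KA replicate 2. Those of astrocytes and endothelial cells were highest in KA replicate 3. In sham, replicate 3 was highest for 8 of 11 class I heavy chains and 5 of 8 class II genes, and replicate 1 lowest for 9 of 11 and 6 of 8. Summed over 4 class II surface chains and Cd74, class II came to 12.1, 7.60 and 6.64% of summed class I heavy chain TPM in KA replicates 1 to 3, to 5.09, 7.76 and 11.4% in sham, and to 5.13, 29.8 and 1.83% in KA+NBP. The sham and KA shares overlapped, and KA+NBP held both the highest and the lowest share of the 9 libraries.

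**Figure D4:**
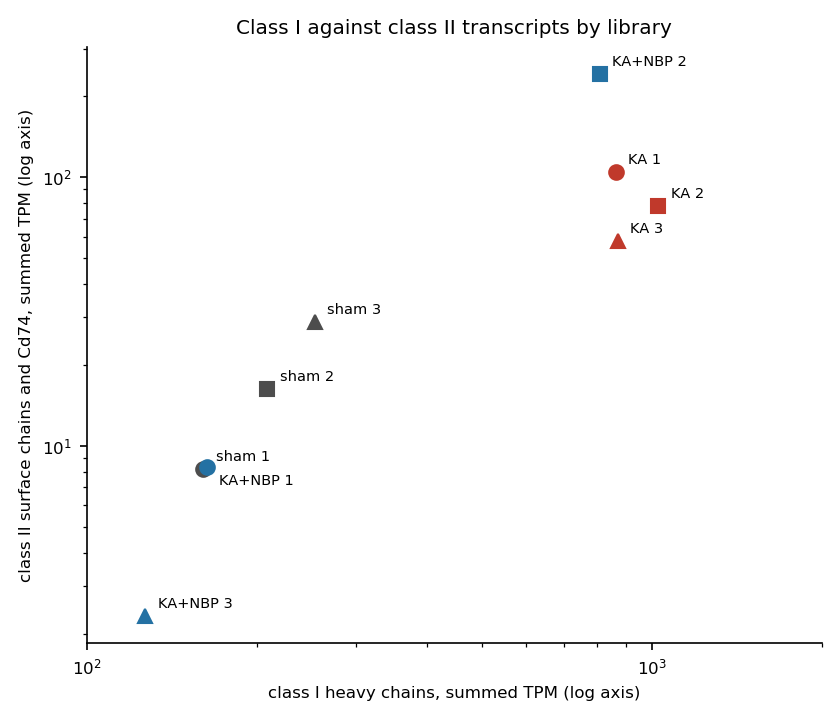
Summed TPM of 19 class I heavy chains (horizontal, log axis) against that of 4 class II surface chains and Cd74 (vertical, log axis), 1 point per library, coloured by group. The KA libraries lie at 863 to 1027 TPM of class I, KA+NBP replicates 1 and 3 lie with or below sham, and KA+NBP replicate 2 has 808 TPM of class I and the highest class II sum, 241 TPM.

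With NBP added to KA, 7 of the 30 genes were lower than with KA alone and 0 were higher, where 12.7% of all genes fell and 10% rose. These 7 were H2-T24 (log2 fold change -1.52, adjusted p = 0.0384), Tap2 (-0.73, adjusted p = 0.0492), Tapbp (-1.07, adjusted p = 0.00689), Erap1 (-0.80, adjusted p = 0.0479), H2-DMb1 (-1.64, adjusted p = 0.0410), H2-Ob (-2.30, adjusted p = 0.0265) and Cd86 (-1.93, adjusted p = 0.0152). By role they were 1 of 11 class I heavy chains, 3 of 6 loading genes, 2 of 8 class II genes and 1 of 2 tested costimulators. The median over the 30 was -0.95, against -0.01 over all genes, and in 14 of 30 every KA+NBP library lay below every KA library, as it did in 20.4% of all genes. This comparison and that of KA and sham share the KA libraries, so they are not independent. The number of calls depended on the fit. It was 1 when KA and KA+NBP alone were fitted, where 4.10% of all genes fell, and 12 with the replicate number as a block. It was 3 without any 1 sham replicate, 2 without any 1 KA replicate or KA+NBP replicate 3, and 1 without KA+NBP replicate 1. Over all genes, calls in either direction were 3355 with all libraries, 1065 with 2 groups and 3189 with the block. They were 2396 to 2496 without a sham replicate and 1741 to 2067 without a KA replicate. Without KA+NBP replicate 3 they were 1510, and without KA+NBP replicate 1 they were 1295. Only the Tapbp call held in every setting; Cd86 was lost in the fit of 2 groups and without KA+NBP replicate 1.

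Without KA+NBP replicate 2, 27 of the 30 genes were lower than in KA, where 23.6% of all genes fell. They took in 11 of 11 class I heavy chains, 6 of 6 loading genes, 7 of 8 class II genes, Nlrc5, Cd80 and Cd86, leaving H2-DMa, Ciita and H2-Ke6 not called. H2-K1 was then at -2.78 (log2, SE 0.21, adjusted p = 9.9e-06) against -1.43 (SE 0.59, adjusted p = 0.112) with all libraries, and B2m at -2.65 (SE 0.16, adjusted p = 3.2e-06) against -1.55 (SE 0.51, adjusted p = 0.0567). For the surface chains the sign itself turned: H2-Aa went from 0.19 (adjusted p = 0.917) to -3.93 (adjusted p = 0.00082), and H2-Eb1 from 0.26 (adjusted p = 0.881) to -3.29 (adjusted p = 0.00222). H2-Ab1 went from -0.05 to -3.91, Cd74 from -0.18 to -4.10, and Nlrc5 from -1.07 to -3.40.

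**Figure D5:**
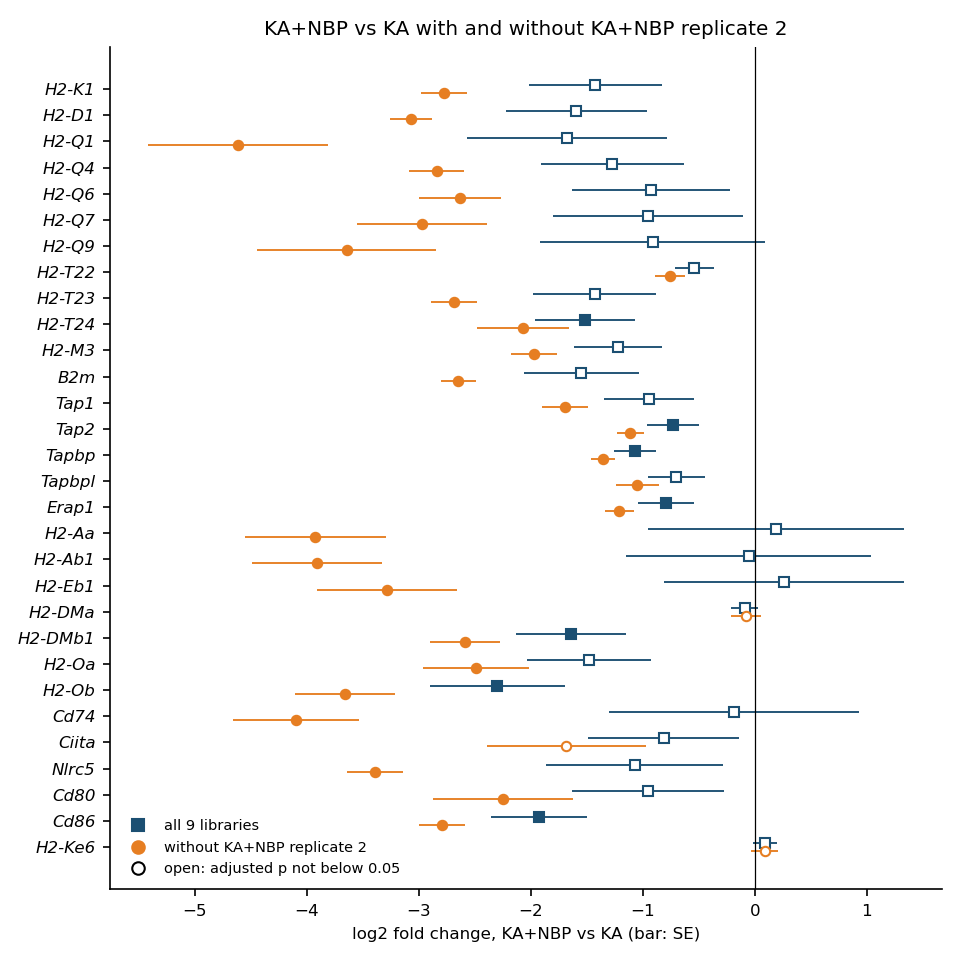
Log2 fold changes of KA+NBP against KA (horizontal axis, bars give the SE) for the 30 tested genes, with all 9 libraries (squares) and without KA+NBP replicate 2 (circles), filled where the adjusted p was below 0.05. The H2-Aa and H2-Eb1 points move from 0.19 and 0.26 to -3.93 and -3.29, and 27 circles are filled against 7 squares.

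The KA+NBP libraries were thus placed one by one. Replicate 1 lay within the sham range for 16 of the 30 genes, below it for 10, between sham and KA for 2 and within the KA range for 2. Replicate 3 lay below the sham range for 21, within it for 7, and within the KA range for 2, the flat H2-DMa and H2-Ke6. Replicate 2 lay between sham and KA for 14, within the KA range for 8 and above it for 8, which were H2-Q6, H2-Q7, H2-Q9, H2-Aa, H2-Ab1, H2-Eb1, Cd74 and Nlrc5. On the way from the sham mean to the KA mean, in CPM, replicate 2 had gone 77.5% for H2-K1, 62.8% for B2m, 36.4% for Tapbp, 53.2% for H2-DMb1 and 38.7% for Cd86, but 395% for H2-Aa and 283% for Cd74. It held the most T cell marker RNA, with Cd8a at 4.83 CPM against 1.05 to 2.30 in KA. Its natural killer marker sum was the highest too, at 8.80 CPM against 0.187 to 5.04 in sham. Of that list, Gzma was at 2.32 CPM against at most 0.123 elsewhere. These stood next to its choroid plexus sum of 637 CPM. Whether these markers and the class II level share a source was not tested.

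Between KA+NBP and sham no antigen presentation gene was called. For these 30 genes 0 were called and 0 had an unadjusted p below 0.05; over all genes edgeR called 0 of 14752, with 248 (1.68%) at an unadjusted p below 0.05, and the DESeq2 Wald test called 0 of the 27 it tested and 1 of all genes. In 1 of the 30, every KA+NBP library lay above every sham library, and in 0 below, against 3.27% and 3.09% of all genes. That gene was H2-Ke6, which carries an H2 name only, at 13.4 to 13.8 CPM in KA+NBP and 11.7 to 12.1 in sham. The log2 fold changes of 28 of the 30 were above 0 with all libraries, with a median of 0.67. Without KA+NBP replicate 2 they were below 0 in 26 of the 30, with a median of -0.41, 10 had an unadjusted p below 0.05, and 0 were called. The sign of most differences from sham thus depended on 1 library.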

How the data were processed

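RNA of 9 mouse hippocampi was sequenced, 3 libraries in each of 3 groups. The submitters' processing notes name the tools Bowtie2, RSEM 1.3.1 and DESeq2 1.4.5 and the GRCm39 build, without saying what each did. The authors deposited for 18474 genes an estimated count, in which 5.65 to 6.61% of values were fractional, so that reads shared by near-identical H2 genes may be divided among them. The authors also deposited FPKM, scaled to length and depth, used in an alternative, and the authors' TPM, used to compare levels between genes. Estimated counts were rounded, filtered with filterByExpr (14752 genes left), scaled by TMM and fitted in edgeR 4.0.16 (R 4.3.3) with a mean per group and no block, common dispersion 0.021, and quasi-likelihood tests were adjusted by Benjamini-Hochberg at 0.05. SE is the log2 fold change divided by the root of F. A count of 0 allows up to 3 counts, 0.177 to 0.191 CPM; such bounds cover counting error only. At 15699251 to 16374637 counts a library, genes below 1 CPM are imprecise.

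The 42 genes, the related lists and the markers were chosen with earlier results of these data known. Every tested gene is named; library values are printed for called genes reaching 1 CPM in a group mean and for 12 chosen by name, and of each list up to 4 genes with the smallest p. Alternatives were DESeq2 1.42.0, its size factors, no filter, fits of 2 groups, a replicate block, limma 3.58.1 on log2(FPKM + 1) or log2(FPKM + 0.1) for genes with a mean of at least 0.1 FPKM, and each library left out; the fitting code was tested on simulated data. Deviations from the group mean in same-number libraries of sham and KA+NBP had correlations of 0.301, 0.332 and 0.126. Different-number pairs ran from -0.310 to 0.192, the highest being KA+NBP replicate 3 with sham replicate 1. The labels give the numbers no meaning across groups. Deviations within a group sum to 0, which ties these correlations together, so the values cannot decide whether the libraries were paired. The replicate block left 0 calls between sham and KA+NBP. Promoters are RefSeq entries of GRCm38.p6 and gene spans are the deposited GRCm39 ones; no coordinate was converted. The promoters of 11 genes were not matched, and that of Cd74 is not reported here, nor are some genes of the related lists and markers.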

Additional observations from a re-analysis of the deposited data

How the results depend on the processing

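For KA against sham, 19 genes were called, and 19 or 20 with DESeq2 size factors, the DESeq2 Wald test, no filter, the replicate block or limma on FPKM. The genes tested numbered 27 with the DESeq2 Wald test, 34 with limma and 42 with no filter. Leaving out 1 library gave 4 to 26 calls, for class I heavy chains 0 to 11 (8 with all) and for class II 1 to 7 (3 with all). Over all genes, calls were 4961 with all libraries, 4771 to 5350 under those alternatives and 2721 to 6700 with 1 library left out. Sham and KA alone gave 7 class II calls. For KA+NBP against KA (7 calls), limma on log2(FPKM + 1) gave 13, on log2(FPKM + 0.1) 12, the replicate block 12, 2 groups alone 1 and 1 library left out 1 to 27. Over all genes, these settings gave 3422, 3288, 3189, 1065 and 1295 to 6355 calls, against 3355 with all libraries. In this comparison the class I heavy chain count of 1 became 3 with DESeq2, 5 with the block and 6 with both limma fits. It was 0 with 2 groups and 0 to 11 with 1 library left out. The class II count of 2 became 0 with 2 groups and 0 to 7 with 1 library left out. With 1 library left out, the log2 fold change of KA+NBP against KA of H2-Aa ran from -3.93 to 0.76 and H2-Eb1 from -3.29 to 0.81, the negative ends without KA+NBP replicate 2 and the positive ends without KA+NBP replicate 3. KA+NBP against sham stayed at 0 calls in every setting. The cause of these differences was not tested, except that a left-out library or group removes its spread and its degrees of freedom.

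Same-number correlations of the KA libraries were -0.0061, 0.0228 and 0.0299 with sham and 0.0447, -0.0450 and -0.0201 with KA+NBP. Different-number correlations ran from -0.0334 to 0.0176 with sham and from -0.102 to 0.0798 with KA+NBP. The block gave 19 calls for KA against sham and 12 for KA+NBP against KA. Between sham and KA+NBP the block changed no call. Of single log2 fold changes, 405 of 477 values under alternatives kept direction and side of the threshold in KA against sham, 390 of 478 in KA+NBP against KA and 474 of 474 in KA+NBP against sham. Each group has 3 mice, 1 library lies far from its companions, and genes below 1 CPM rest on few reads.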
